A study of Cristatella mucedo with 12 samples.

Results

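The 8 gene models examined here carry the names of mitochondrial NADH dehydrogenase subunits in the freshwater bryozoan Cristatella mucedo. They are MT_nad1, MT_nad2, MT_nad3_0, MT_nad3_1, MT_nad4, MT_nad4l, MT_nad5 and MT_nad6, chosen by name alone out of 35949 models in the deposited table. The data are 12 bulk RNA-seq libraries made from polyadenylated RNA, all of the strain isolate SBPEP1 with a wildtype genotype. Statoblasts, the dormant capsules from which freshwater bryozoans found new colonies, gave 4 libraries, 1 each straight from the freezer and after 2, 4 and 6 days of growth in an aquarium at room temperature. Mature colonies taken from a stream gave 8 libraries in 4 groups of 2, namely the edge zone and the central zone of one kind of dissection, and the end part and the middle part of elongated colonies. Each library came from whole colonies, capsules or colony pieces, so fewer cells of a type and less RNA per cell cannot be told apart in any value given here. The labels give no age for the mature colonies.

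NADH dehydrogenase, also called complex I, is the entry point of the respiratory chain: it takes electrons from NADH, hands them to ubiquinone and pumps protons across the inner mitochondrial membrane. Most of its subunits are encoded in the nucleus and imported, whereas the core of its membrane arm is encoded in the mitochondrial genome. Of that core, ND1 helps to form the ubiquinone pocket, ND3 carries a mobile loop next to it, ND6 and ND4L line the path of protons behind it, and ND2, ND4 and ND5 are the antiporter-like pumping subunits. Animal mitochondria copy their genes as long precursors that are cut and polyadenylated, so the level of each messenger depends on its processing and stability as well as on transcription.

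All 8 models lie on contig 594 of the deposited assembly, a contig of 21003 bases with 16 models, none of which overlaps another. In order of position, MT_nad5 spans bases 4292 to 5982 and MT_nad4 bases 6080 to 7414. The short MT_nad4l spans bases 7441 to 7743 and starts 26 bases after MT_nad4 ends. Beyond the cytochrome b gene MT_cob lie MT_nad6, at bases 9009 to 9488, and MT_nad1, at bases 9624 to 10568. A pair of models bears the nad3 name, and they do not adjoin each other. MT_nad3_1 spans bases 12724 to 12921, and MT_nad3_0 follows after a gap of 1914 bases, at bases 14836 to 15189. MT_nad2 spans bases 18772 to 19785 and ends 2 bases before the cytochrome oxidase gene MT_cox2. The table gives no strand and no exons for these models. Spans were multiples of 3 for every member except MT_nad5, whose 1691 bases leave a remainder of 2. The nad3 models would hold 66 codons in MT_nad3_1 and 118 in MT_nad3_0, and the table does not say whether they are pieces of one gene or separate copies. No sequence is printed because the deposited table holds none.

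Library totals were 4738221 to 7805888 counts in the statoblast series and 14787598 to 26089274 counts in mature colonies. Values below are CPM, that is counts divided by the library total and put on one common scale, unless a share is named. The table names no nuclear model, so neither the nuclear subunits of complex I nor markers of any cell type could be looked up, and the labelled tissues were not checked against markers. A technical feature differed between the sets: expected counts with a fraction other than 0.5 made up 6.29% to 7.72% of the models counted in statoblast libraries and 26.6% to 32.2% in mature libraries. No statoblast library overlapped a mature one in this feature or in its total. Their part in differences between statoblasts and mature colonies cannot be told apart from the tissue, and was not tested.

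Within mature colonies, the 3 libraries numbered 3 in their titles stood apart. The 8 members together held 2.93% of counts in edge zone replicate 3, 2.71% in end part replicate 3 and 2.59% in middle part replicate 3. They held 3.60% in edge zone replicate 2, 3.98% and 4.31% in the central zone replicates 1 and 2, 3.77% in end part replicate 1 and 4.05% in middle part replicate 2. The libraries numbered 3 were thus the lowest of the mature set, with a mean of 2.74 ± 0.172% (SD, n = 3) against 3.94 ± 0.271% (SD, n = 5). The other 6 mitochondrial protein genes moved the same way, each of them lower in every library numbered 3 than in every other mature library. The labels do not say that the number marks a batch, and the central zone has no library with that number. Results against mature colonies are therefore given with and without these libraries.

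**Figure D1:**
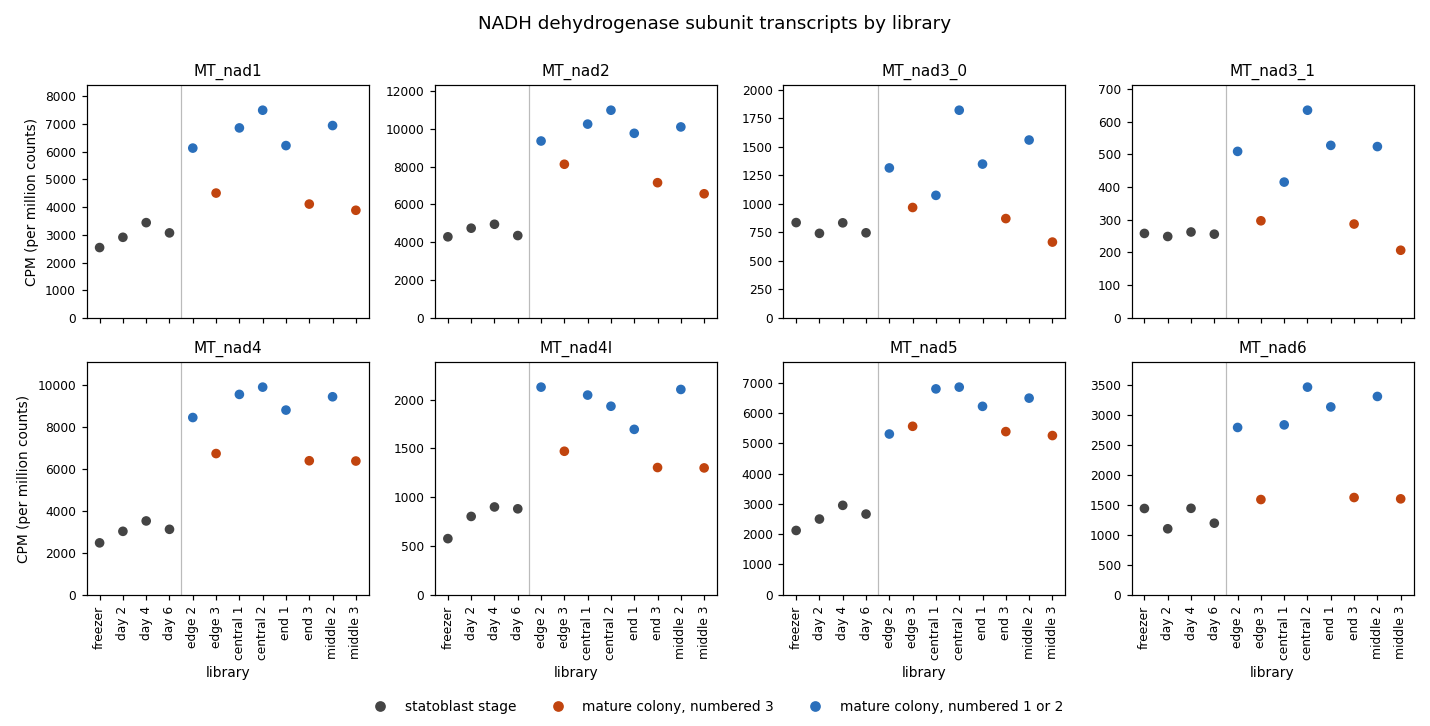
Level of each NADH dehydrogenase subunit model (vertical axis, CPM, starting at 0) in each of the 12 libraries (horizontal axis). Each point is 1 library: grey for the statoblast stages, red for mature libraries numbered 3 and blue for mature libraries numbered 1 or 2. The grey points lie lowest for 6 of the 8 models, and for MT_nad3_0 and MT_nad3_1 they overlap the red points.

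Mean CPM of every NADH dehydrogenase subunit model was lower in statoblast libraries than in mature colonies, though single libraries overlapped for MT_nad3_0 and MT_nad3_1. The 8 models together took 1.45% of counts in the freezer library, 1.61% at day 2, 1.83% at day 4 and 1.63% at day 6, which is below each of the mature libraries listed above. The mean was 1.63 ± 0.155% in statoblasts (SD, n = 4) and 3.49 ± 0.661% in mature colonies (SD, n = 8). The statoblast SD is a spread among stages of 1 library each, and the mature SD one among zones of 2 libraries each. Stages and zones also enter the spread used by the tests of statoblasts against mature colonies. Relative to mature colonies, mean CPM in statoblasts was lowest for the pumping subunit MT_nad4, at 37.0%, and highest for MT_nad3_0, at 65.6%. In edgeR's quasi-likelihood test with Benjamini-Hochberg adjustment, 8 of 8 members were lower in statoblasts at an adjusted p under 0.05. That test also called 48.2% of the 17896 models tested as lower in statoblasts. The median log2 fold change was -1.54 for the members, -1.77 for the other 6 mitochondrial protein genes, of which 6 were called lower, and -0.62 for all models tested. The scaling shifts all of these together: with library totals alone, the median of all models was -0.089 and that of the members -0.98. Relative to all models, the members' median lay 0.92 lower under the TMM scaling of the test and 0.89 lower under library totals (log2).

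Of the pumping subunits, MT_nad4 and MT_nad5 had the largest log2 fold changes among the members. MT_nad4 stood at 2477, 3028, 3523 and 3124 CPM in the freezer, day 2, day 4 and day 6 libraries, against 6383 to 9910 CPM (median 8637) in mature colonies. Every statoblast value lay far under the lowest mature value, and the log2 fold change was -1.99 (edgeR adjusted p = 1.31e-05, SE 0.27). MT_nad5 had 2122, 2499, 2951 and 2663 CPM in the same stages and 5255 to 6853 CPM (median 5889) in mature colonies. These ranges did not overlap either, and its log2 fold change was -1.77 (edgeR adjusted p = 1.08e-05, SE 0.24). MT_nad2 had 4285, 4741, 4949 and 4351 CPM, against 6561 to 10980 CPM (median 9554) in mature colonies. The groups were again separate, with a log2 fold change of -1.55 (edgeR adjusted p = 9.08e-05, SE 0.26).

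Of the subunits around the ubiquinone pocket and the proton path behind it, MT_nad1 stood at 2540, 2911, 3441 and 3070 CPM in the 4 stages, against 3888 to 7504 CPM (median 6180) in mature colonies. No statoblast value reached the mature range, and the log2 fold change was -1.51 (edgeR adjusted p = 0.000279, SE 0.29). MT_nad4l had 575.1, 802.6, 899.6 and 880.6 CPM, against 1300 to 2127 CPM (median 1813) in mature colonies. Its freezer value was the lowest of the 12, and the log2 fold change was -1.71 (edgeR adjusted p = 0.00011, SE 0.30). MT_nad6 had 1438, 1100, 1441 and 1193 CPM, against 1587 to 3461 CPM (median 2810) in mature colonies. Its highest statoblast stages came close to the mature libraries numbered 3 without reaching them, and the log2 fold change was -1.54 (edgeR adjusted p = 0.000536, SE 0.32).

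The pair of nad3 models, named for the subunit with the mobile loop, differed least. MT_nad3_0 stood at 836.2, 741.7, 834.0 and 746.5 CPM in statoblasts, against 665.1 to 1823 CPM (median 1196) in mature colonies. Middle part replicate 3 was the lowest of all 12 libraries, so the groups overlapped, and the log2 fold change was -1.19 (edgeR adjusted p = 0.0035, SE 0.32). MT_nad3_1 had 258.0, 248.7, 262.4 and 255.8 CPM in statoblasts, against 206.6 to 634.7 CPM (median 461.9) in mature colonies. Its coefficient of variation was 2.24% in statoblasts and 35.0% in mature colonies. Its log2 fold change was -1.31 (edgeR adjusted p = 0.00284, SE 0.34). By CPM, 6 of the 8 members had every stage below every mature library, the exceptions being the nad3 models, and 33.5% of all models tested showed that pattern. Each of the other 6 mitochondrial protein genes showed it as well.

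Under the TMM scaling of the test, the members were lower in statoblasts than in either kind of mature library. Against the 3 libraries numbered 3, 8 of 8 members were called, with log2 fold changes of -1.78 to -0.72 and a median of -1.26, beside 42.9% of all models called lower. By CPM, without that scaling, MT_nad3_1 averaged 256.2 ± 5.74 in statoblasts (SD, n = 4) and 263.3 ± 49.4 in libraries numbered 3 (SD, n = 3). MT_nad3_0 averaged 789.6 ± 52.6 CPM in statoblasts and 835.1 ± 155.0 CPM in libraries numbered 3, so both models overlapped there and their means differed by less than the spread. Against the 5 other mature libraries, 8 of 8 were called, with values of -2.21 to -1.48 and a median of -1.83, beside 45.3% of all models called lower. A single stage has no replicate, so fits of 1 stage against mature colonies took their spread from the mature groups and are no replicated test. In them, 6 members were called for the freezer, day 2 and day 6 libraries and 4 for day 4. The same fits called 44.8%, 42%, 34.9% and 34.5% of all models as lower for the freezer, day 2, day 4 and day 6. The nad3 models were the ones lost at every stage, with edgeR adjusted p-values of 0.0639 to 0.132. MT_nad1 and MT_nad6 were lost at day 4 as well, at edgeR adjusted p = 0.0562 and 0.0697.

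As a share of all counts of the 14 mitochondrial protein genes, the members together lay in overlapping ranges in the 2 sets. They made up 32.7%, 28.6%, 30.8% and 30.1% in the freezer, day 2, day 4 and day 6 libraries, a mean of 30.6 ± 1.69% (SD, n = 4). In mature colonies they made up 27.7% to 33.0%, a mean of 29.6 ± 1.86% (SD, n = 8). All 4 stages fell inside the mature range. The members cover 55.6% of the bases spanned by these genes.

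Behind that similar sum, the members' shares of mitochondrial protein counts moved in both directions. In two-sided exact permutation tests of 4 against 8 libraries, adjusted over the 14 mitochondrial protein genes, 3 members held a larger share in statoblasts and 1 a smaller share. Of the other 6 genes 3 passed, so 4 of 8 members stand beside 7 of 14 genes in all. The smallest p this design allows is 0.00404. Shares add up to a whole, so a larger share of one gene lowers those of others.

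MT_nad4 held 5.57%, 5.39%, 5.94% and 5.77% of mitochondrial protein counts in the 4 stages, against 6.49% to 7.61% (median 6.93%) in mature colonies. Every stage was below every mature library, and the means differed by -1.31 percentage points (exact permutation p = 0.00404, adjusted 0.0113). MT_nad3_0 held 1.88%, 1.32%, 1.41% and 1.38%, against 0.749% to 1.27% (median 1.04%) in mature colonies. Here every stage was above every mature library, by 0.493 points in the mean (exact permutation p = 0.00404, adjusted 0.0113). The freezer value lay well above the other stages.

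MT_nad1 held 5.71%, 5.19%, 5.80% and 5.67% in statoblasts, against 4.42% to 5.23% (median 4.80%) in mature colonies. Day 2 fell just inside the mature range, and the means differed by 0.754 points (exact permutation p = 0.00808, adjusted 0.0162). MT_nad3_1 held 0.581%, 0.443%, 0.442% and 0.473%, against 0.235% to 0.442% (median 0.349%) in mature colonies. The day 4 library and central zone replicate 2 were the point of contact, and the means differed by 0.134 points (exact permutation p = 0.00808, adjusted 0.0162).

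The other members did not pass. MT_nad2 held 8.62 ± 0.704% in statoblasts and 7.69 ± 0.718% in mature colonies (SD, n = 4 and 8), a difference of 0.925 points (exact permutation p = 0.0768, adjusted 0.134). Edge zone replicate 3 had the highest MT_nad2 share of the mature set, 9.17%. Without that library the difference was 1.14 points and passed (exact permutation, adjusted p = 0.0212). Without the freezer library it was 0.583 points (exact permutation, adjusted p = 0.403). Against the libraries numbered 3 alone it was 0.324 points, and against those numbered 1 or 2 it was 1.28 points. That division was made after the values had been seen, so no p-value is given for it. MT_nad6 held 2.46 ± 0.553% in statoblasts and 2.09 ± 0.255% in mature colonies (exact permutation, adjusted p = 0.258). At 3.24%, the freezer library lay above the other stages, at 1.96% to 2.43%, and without it the difference fell to 0.103 points, against 0.363 points with it. MT_nad4l held 1.47 ± 0.141% in statoblasts and 1.48 ± 0.160% in mature colonies (exact permutation, adjusted p = 0.940). MT_nad5 held 4.78 ± 0.235% in statoblasts and 5.18 ± 0.826% in mature colonies (exact permutation p = 0.461, adjusted 0.586).

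MT_nad5 took 4.45% to 4.97% of mitochondrial protein counts in statoblasts. Its mature shares fell into separate ranges, 5.97% to 6.28% in the 3 libraries numbered 3 and 4.36% to 4.78% in the 5 others, and the statoblast range overlapped that of the others alone. The MT_nad5 difference was therefore -1.38 points against the libraries numbered 3 and 0.191 points against the others. For the 4 members that passed, the sign was the same against either kind of mature library. Against the libraries numbered 3 alone, no exact permutation test of 4 against 3 can go below p = 0.0571. The differences there were -1.75 points for MT_nad4, 0.841 for MT_nad1, 0.545 for MT_nad3_0 and 0.184 for MT_nad3_1. When both mitochondrial ribosomal RNAs were added to the denominator, MT_nad4 was the one member that passed. MT_nad1, MT_nad3_0 and MT_nad3_1 then had adjusted p = 0.309, 0.113 and 0.189 by exact permutation. The ribosomal RNAs themselves varied: they held 0.127% of counts in the freezer library and 0.922% to 1.82% at the later stages. In mature libraries they held 0.594% to 1.17%. In the edgeR fit over all models with the mitochondrial protein total as library size, which called 81.7% of models, 1 member was called: MT_nad3_0 was higher in statoblasts, at 0.58 on the log2 scale (edgeR adjusted p = 0.0398, SE 0.25). MT_nad4 had -0.30 in that fit (edgeR adjusted p = 0.190, SE 0.21).

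**Figure D2:**
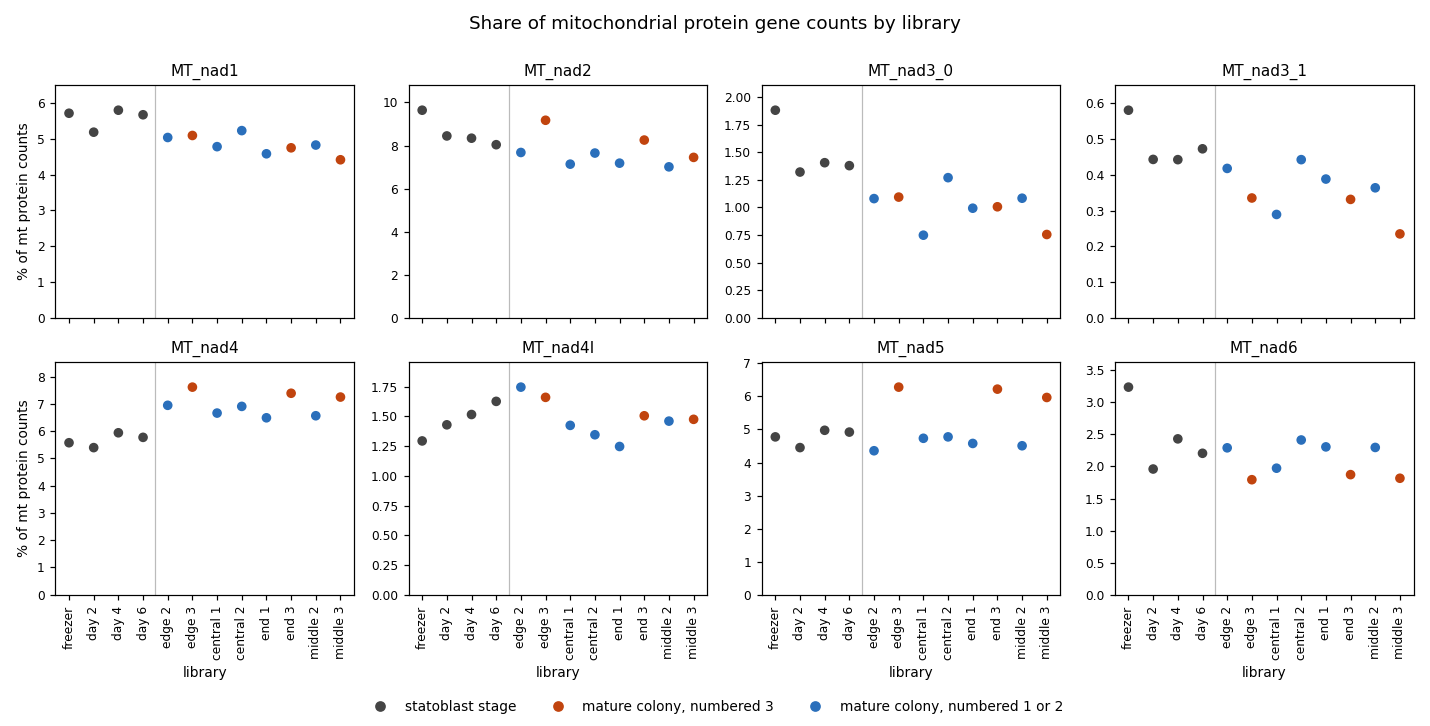
Share of all mitochondrial protein gene counts (vertical axis, percent, starting at 0) held by each NADH dehydrogenase subunit model in each of the 12 libraries (horizontal axis). Each point is 1 library, coloured as statoblast stage (grey), mature numbered 3 (red) or mature numbered 1 or 2 (blue). MT_nad4 is lower and MT_nad3_0 higher in all 4 statoblast libraries than in any mature library, and the red MT_nad5 points stand above all others.

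Ratios of counts between members within a library do not depend on the library total. The ratio of MT_nad4 to MT_nad2, both pumping subunits, was 0.578, 0.639, 0.712 and 0.718 from freezer to day 6, against 0.830 to 0.973 in mature colonies. It was lower in every stage than in any mature library. This is also the ratio of their shares given above. Among the members, MT_nad4 had the largest fall in mean share, -1.31 points, and MT_nad2 the largest rise, 0.925 points. Not all pairs of members were compared, so how many show such a separation is not known. The ratio of MT_nad5 to MT_nad6 was 1.48 in the freezer library and 2.05 to 2.27 at the later stages. In mature colonies it was 3.29 to 3.50 in the libraries numbered 3 and 1.90 to 2.40 in the others, with nothing between. The division by number was made after the values had been seen, and here too not all pairs were compared. That gap is therefore a description. The nad3 models kept a narrower relation: MT_nad3_0 had 2.92 to 3.24 times the counts of MT_nad3_1 in statoblasts and 2.56 to 3.27 times in mature colonies. Per base of model, MT_nad3_0 was 1.63 to 1.81 times MT_nad3_1 in statoblasts and 1.43 to 1.83 times in mature colonies.

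Levels of different members can be set side by side only per length, here as CPM per kilobase of the deposited span. In mature colonies MT_nad2 was highest, at 8908 ± 1560 CPM per kilobase, and led in 8 of 8 libraries (SD, n = 8). MT_nad4, at 6153 ± 1114, MT_nad1, at 6110 ± 1487, MT_nad4l, at 5766 ± 1164, and MT_nad6, at 5293 ± 1683 CPM per kilobase, lay within one another's spread. The order of neighbours among these members held in only 4 to 6 of 8 libraries. MT_nad5 followed at 3538 ± 403.2 CPM per kilobase, below MT_nad6 in 8 of 8 libraries, and did not differ beyond the spread from MT_nad3_0, at 3400 ± 1077. MT_nad3_1 was lowest, at 2146 ± 750.3 CPM per kilobase, in 8 of 8 libraries.

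In statoblasts MT_nad2 was again highest per kilobase, at 4518 ± 312.5 CPM, ahead of MT_nad1, at 3165 ± 395.2, in 4 of 4 libraries (SD, n = 4). MT_nad6, at 2694 ± 361.3, and MT_nad4l, at 2606 ± 491.5 CPM per kilobase, were not separated, each being ahead in 2 of 4 libraries. MT_nad4 had 2276 ± 322.9 CPM per kilobase, below MT_nad4l in 4 of 4 libraries, whereas in mature colonies it had the second highest mean. MT_nad3_0, at 2231 ± 148.6, was beside it, and MT_nad5, at 1513 ± 204.6, and MT_nad3_1, at 1294 ± 29.0 CPM per kilobase, came last. In both sets the 8 members held ranks 7 to 14 of the 14 mitochondrial protein genes by mean CPM per kilobase. Each member was below each cytochrome b, cytochrome oxidase and ATP synthase gene in 4 of 4 statoblast libraries and 7 of 8 mature libraries.

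**Figure D3:**
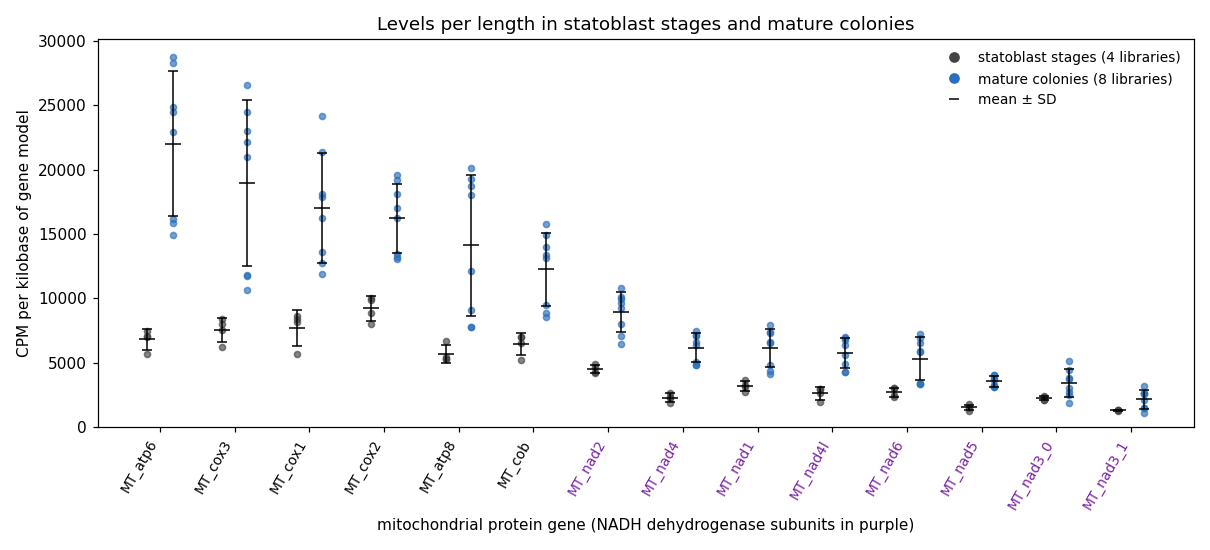
Level per length (vertical axis, CPM per kilobase of the deposited span) of the 14 mitochondrial protein genes, with the NADH dehydrogenase subunit models named in purple. Grey points are the 4 statoblast libraries and blue points the 8 mature libraries, with bars for the mean and 1 SD. MT_nad2 is the highest and MT_nad3_1 the lowest of the members by mean in both sets, and all members lie to the right, at the low end.

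Over the statoblast stages, no member had a trend that passed the test. By CPM, 7 of 8 were highest at day 4, the exception being MT_nad3_0, which was highest in the freezer library, and 5 of 8 were lowest in the freezer library. From freezer to day 6 the ratio of day 6 to freezer CPM was 1.53 for MT_nad4l, 1.26 for MT_nad4, 1.25 for MT_nad5 and 1.21 for MT_nad1. It was 1.02 for MT_nad2, 0.991 for MT_nad3_1, 0.893 for MT_nad3_0 and 0.830 for MT_nad6. Each stage has 1 library and no replicate of its own. In an edgeR fit of a slope per day over the 4 libraries, with the freezer coded as day 0, none of the members was called. The fitted slopes ran from -0.022 for MT_nad6 to 0.099 for MT_nad4l on the log2 scale per day (SE 0.042 to 0.049, edgeR adjusted p = 0.215 to 0.990). Their median was 0.029, beside -0.00012 for all models, and none had an unadjusted p under 0.05. Of the 9887 models tested, 10.1% were called, a count that fell to 4 models without the freezer library.

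Between the dissected zones, no member was called in the main fits. The first dissection set the edge of the colony against its centre. Together the members held 3.60% and 2.93% of counts in the edge libraries and 3.98% and 4.31% in the central libraries. Fitted log2 fold changes ran from -0.12 for MT_nad6 to 0.26 for MT_nad4l (SE 0.27 to 0.46, edgeR adjusted p = 0.578 to 0.997), while 23.7% of all 18085 models tested were called. The members' median was 0.035, beside -0.011 for all models. The mean CPM of all 8 members was lower in the edge libraries than in the central ones, and with library totals alone the fitted median was -0.35 for the members and -0.42 for all models. The direction at the edge thus depended on the scaling for 6 members, whereas MT_nad1 and MT_nad6 were below 0 under both. Relative to all models, the members' median lay 0.046 higher under TMM and 0.065 higher under library totals. With a term for libraries numbered 3 in the fit, no member was called either, and log2 fold changes at the edge ran from 0.18 for MT_nad5 to 0.54 for MT_nad4l, with a median of 0.33 (edgeR adjusted p = 0.184 to 0.686). With that term, MT_nad1 and MT_nad6 changed sign, to 0.29 and 0.31.

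The second dissection set the end part of elongated colonies against the middle part. The members held 3.77% and 2.71% of counts in the end libraries and 4.05% and 2.59% in the middle libraries, so replicates of one part lay farther apart than the parts did. Log2 fold changes ran from -0.25 for MT_nad4l to 0.077 for MT_nad3_1 (SE 0.27 to 0.46, edgeR adjusted p = 0.782 to 0.971). Their median was -0.10, beside 0.014 for all models, of which 0.343% were called. The difference between the edge effect and the end effect ran from -0.073 for MT_nad3_1 to 0.51 for MT_nad4l, with a median of 0.12 (SE 0.38 to 0.65, edgeR adjusted p = 0.482 to 0.997). It was called for 0 members and for 2.18% of all models. A test for any difference among the 4 mature groups called 0 members, beside 24% of all models, with edgeR adjusted p = 0.258 for MT_nad4l to 0.687 for MT_nad6. With the replicate number as a block, that test called 1 member, MT_nad4l (edgeR adjusted p = 0.0401), beside 5403 of 18085 models. What the number stands for is not given in the labels. In these 4 tests without the block, no member had an unadjusted p under 0.05, and the DESeq2 Wald test called none for the edge, the end or their difference. With standard errors of this size, a member could differ between zones by an amount that these pairs of libraries cannot show.

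Set against the other mature libraries in a fit that also held the 4 group means, the libraries numbered 3 had lower fitted levels of every member. This comparison was added after the values had been seen. By CPM, 7 of 8 members lay lower in every library numbered 3 than in any other mature library, a pattern shown by 0.774% of all models tested. The members had been seen to be low in these libraries before the division was made. That share is therefore no test of their pattern. MT_nad5 was the exception: the libraries numbered 3 had 5255 to 5560 CPM, and edge zone replicate 2, at 5305 CPM, lay among them. Log2 fold changes were largest for MT_nad3_1, at -1.08 (SE 0.25), and MT_nad6, at -1.02 (SE 0.22), and smallest for MT_nad5, at -0.23 (SE 0.21). MT_nad6 stood at 1587, 1621 and 1599 CPM in edge zone, end part and middle part replicates 3, against 2789 to 3461 CPM (median 3131) in the others.

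The members' median log2 fold change in that fit was -0.66, that of the other mitochondrial protein genes -0.75 and that of all models -0.0075. With the total of mitochondrial protein counts as library size, MT_nad5 stood at 0.46 (SE 0.16), MT_nad2 at 0.18, MT_nad4 at 0.15 and MT_nad4l at 0.071, and the other members below 0. Since the libraries were divided by their number after the members had been seen to be low in those numbered 3, these values are a description, and no p-value or count of calls is given for them.

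**Figure D4:**
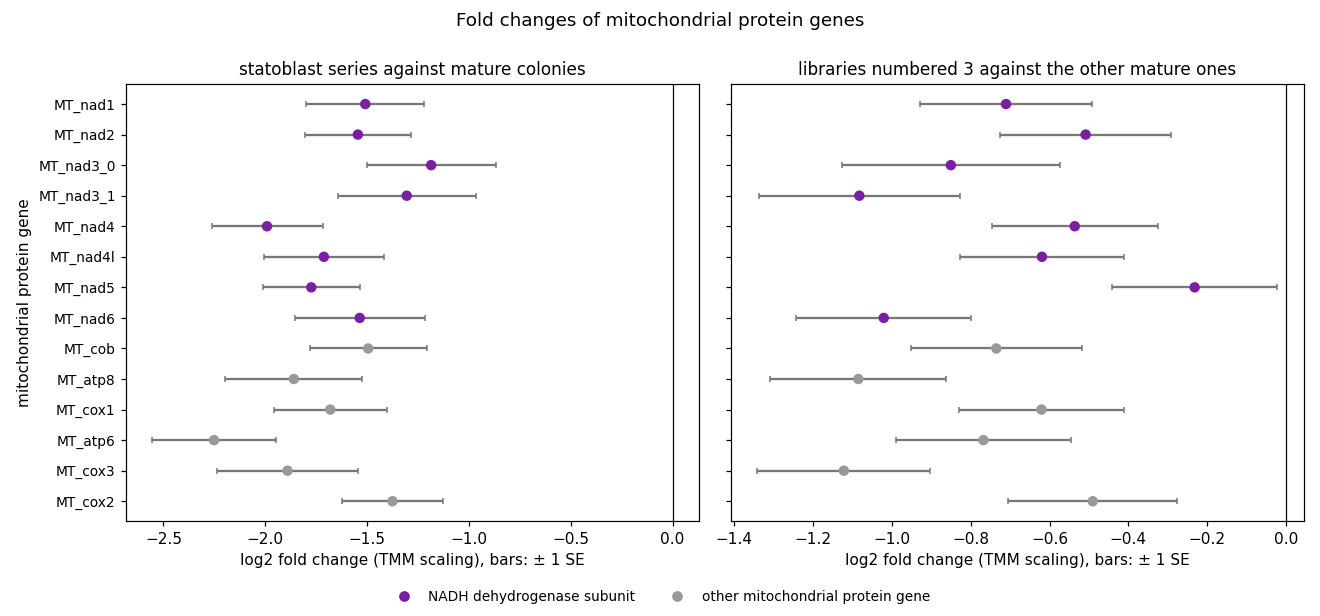
Log2 fold changes (horizontal axis, edgeR with TMM scaling, bars of 1 SE) of the 8 NADH dehydrogenase subunit models (purple) and the other 6 mitochondrial protein genes (grey). The left panel sets statoblasts against mature colonies, with all purple points below 0, between -1.99 for MT_nad4 and -1.19 for MT_nad3_0. The right panel, on its own scale, sets libraries numbered 3 against the other mature libraries, with MT_nad5 nearest to 0, at -0.23.

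Across the 12 libraries, the centred log2 CPM profile of MT_nad1 was closest to the mean profile of the members, with a root mean square difference of 0.0589. MT_nad3_0 was farthest, at 0.255. Among mitochondrial genes, MT_nad4 and MT_nad5 were each other's nearest (0.151), as were MT_nad3_0 and MT_nad3_1 (0.123). MT_nad1 and MT_nad4l were nearest to MT_cob (0.0774 and 0.163), and MT_nad2 and MT_nad6 to MT_nad1 (0.113 and 0.185). Of 10374 models on other contigs, g20305 (contig 14, bases 5755996 to 5758023) was most like the members' mean profile, with a difference of 0.163. It had 195.0 to 203.0 CPM in statoblasts and 316.7 to 535.9 CPM in mature colonies. The next was g32030 (contig 31, bases 4068906 to 4082220), with a difference of 0.178, at 41.0 to 66.3 CPM in statoblasts and 90.5 to 144.9 CPM in mature colonies. The files do not pair either identifier with a name.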

How the data were processed

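Per the labels' protocols, polyadenylated RNA was captured on oligo-dT beads, made into directional libraries and sequenced on HiSeq (paired reads) or NextSeq (single reads) instruments; which library went on which is not stated. The submitters' processing notes name HISAT2 2.1.0 and featureCounts 1.5.1. The genome build, annotation and strand setting were not given in the sources used here. Expected counts for every gene model, without any normalization, were deposited by the authors in 1 table that also holds its contig, begin and end. The re-analysis started from that table and used no reference genome of its own.

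Libraries were grouped by title. Whether replicates were taken from separate colonies is not stated in the labels, and p-values then measure no more than the spread among these libraries. They speak of replicates of every sample, but each statoblast stage has 1 library here.

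Expected counts were rounded, which moved no total by more than 0.00408%, and tested over all models by the quasi-likelihood method of edgeR 4.0.16 (R 4.3.3), after filterByExpr and TMM scaling, with Benjamini-Hochberg adjustment and a threshold of 0.05. A fit of 4 group means over 8 mature libraries gave the zone tests, a fit of 2 groups over 12 libraries the statoblast test, and a fit over 4 statoblast libraries the slope. The SE given is the size of the log2 fold change divided by the square root of F. CPM use library totals. Shares of mitochondrial protein counts were compared by exact permutation over libraries in Python 3.11.15 (pandas 2.3.3, numpy 2.4.6, scipy 1.17.1), and figures drawn with matplotlib 3.10.9. The edgeR fits were also run on simulated counts, with a common spread for all models and no differences among libraries beyond depth and the planted changes. That run cannot show how the fits behave under the spread of the real libraries, and its outcome is not given here. The smallest member count, 1178 for MT_nad3_1 at day 2, has a 95% Poisson interval of 234.6 to 263.2 CPM, which covers counting error only and holds the CPM of that model in all 4 statoblast libraries.

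The members and lists were chosen with earlier results of these data known. The text names the 8 members, for each its most similar mitochondrial gene, and the 2 models on other contigs (mean log2 CPM of 1 or more, no overlap with another model) whose centred log2(CPM + 1) profile had the smallest root mean square difference from the members' mean. DESeq2 1.42.0 (Wald test and size factors), other scalings, no filter on low counts, a replicate block, other denominators and leaving out each library were tried. The comparison of libraries numbered 3, and the use of parts of the mature set, were added after the data had been seen, and both are given without a test.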

Additional observations from a re-analysis of the deposited data

Results flagged for a closer look

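In the freezer library, MT_nad3_0 held 1.88% of the mitochondrial protein counts (Wilson 95% interval 1.83% to 1.94%, counting error only), whereas the other statoblast stages lay between 1.32% and 1.41%. Its gap to the nearest stage, over the range of the 4 stages, was above Dixon's 95% critical value. Of 32 sets of values searched this was the 1 that stood out, and chance marks about 1 set in 20. In CPM, which use the library total, the freezer value of MT_nad3_0 was 836.2, beside 834.0 at day 4, so it did not stand apart there. Without the freezer library, MT_nad3_0 still held a larger share in statoblasts than in mature colonies, by 0.365 percentage points (exact permutation, adjusted p = 0.0339).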

How the results depend on the processing

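Against mature colonies, 8 of 8 members were called in each fit that left out 1 library, with median log2 fold changes of -1.70 to -1.50. With the mitochondrial protein total as library size, 1 member was called and 5 changed sign: MT_nad1 0.21, MT_nad2 0.16, MT_nad3_0 0.58, MT_nad3_1 0.47 and MT_nad6 0.23. That scaling sets the sum of these genes equal by construction. For libraries numbered 3 it put MT_nad2 at 0.18, MT_nad4 at 0.15, MT_nad4l at 0.071 and MT_nad5 at 0.46. Of the shares, 4 to 5 members passed with a library left out and 1 with ribosomal RNAs. Against libraries numbered 3 alone no gene could pass, because exact permutation of 4 against 3 libraries cannot go below p = 0.0571. The share difference of MT_nad4l was -0.0701 to 0.0408 with a library left out and 0.0216 against libraries numbered 1 or 2, where that of MT_nad5 was 0.191.

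The count of all models called moved more; the cause was not tested. With the mitochondrial protein total it was 510 for the edge, 140 for the difference between dissections and 993 for any mature difference. Without a filter it was 681 for the end and 2217 for the difference, and with DESeq2 300 for the end and 1504 for the difference. Library totals gave 1412 for the difference, and a term for libraries numbered 3 gave 223 for the difference. Leaving out 1 library gave 842 to 5100 (edge), 35 to 1079 (end), 36 to 2944 (difference), 935 to 6526 (any) and 4 to 857 (slope). The values above were 4290, 62, 394, 4348 and 999.

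Groups share replicate numbers, and the labels do not say whether a number pairs libraries, so the main fits left it out. Deviations from the group mean, over all models, correlated at -0.16 to 0.38 between libraries with the same number. With 2 libraries per group, one deviation mirrors the other. These correlations are thus not independent and cannot decide whether the numbers pair libraries. With the number as a replicate block, 103 models were called for the end, and 1 member, MT_nad4l, for any difference among mature groups (edgeR adjusted p = 0.0401). The members' counts stayed at 0 for edge, end and difference.

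Each stage is 1 library, statoblast libraries are shallower, and 2 libraries per zone limit what can be seen.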
